A study of Mus musculus with 9 samples.

Results

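Interferon-stimulated genes are the genes that a cell switches on when interferon, a secreted warning signal against viruses, binds its receptors. Receptor-bound JAK kinases phosphorylate Stat proteins, and Stat2 and Irf9 are parts of a complex that binds the interferon-stimulated response element (ISRE) in promoters, and a second element called GAS is used mostly downstream of interferon gamma. The products sense viral RNA and DNA, block translation, degrade or modify viral nucleic acids and attack membranes that enclose pathogens, and many of them are also made at low levels in uninfected tissue, the heart included. A list of 48 such genes, chosen with earlier results of these data known, was taken by gene symbol from the read counts of mouse hearts. All 48 were among the 13890 genes in the counts, and all 48 passed the filter on low counts, which left 13364 genes for testing.

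RNA of 9 whole hearts was sequenced, 1 library per mouse and 3 mice per group. All were male NSG mice, aged 8 weeks at the start, a strain that carries the NOD-scid and IL2Rg null alleles and lacks mature T, B and NK cells. The sham group (S, animals 2, 3 and 5) had surgery with saline in place of cells and was given saline. The group labelled T (animals 11, 12 and 15) was labelled as carrying HCT116, a human colorectal cancer line injected into the spleen to seed liver metastases, also with saline. The group A + T (animals 20, 21 and 22) was labelled as carrying HCT116 and receiving ACVR2B/Fc, a soluble activin receptor that captures activins and myostatin. Hearts were taken about 3 weeks after surgery, and no library analysed here was labelled as a sham given ACVR2B/Fc alone.

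The label of the T libraries is in doubt. The study's own gene list gives fold changes for tumour hosts and for shams given ACVR2B/Fc. Those of the T libraries over S were closer to the values for shams given ACVR2B/Fc than to those for tumour hosts. Every direction below is therefore that of the hearts labelled T. Whether the libraries or the headings of that list were exchanged cannot be told from these files. The libraries held 12392222 to 19732471 counts, and 3 counts, the smallest number read here as detection, equalled 0.152 to 0.281 CPM. CPM are counts brought to a common library size with trimmed means of M-values (TMM), and values are given as mean ± SD with n = 3. Libraries of one group differed from each other beyond counting noise (chi-square per gene of at least 7.64), so each was kept as a separate animal. This mean over genes includes Rn45s, a ribosomal RNA gene with a large share of the counts that differed between libraries. Of 9 lymphocyte markers 1, Cd4, was among the genes analysed, at no more than 1 CPM. Animal 22 of A + T held 1277 summed CPM of the airway genes Scgb1a1 and Sftpb and 170 summed CPM of neutrophil markers. Animal 12 of T held 80.5 summed CPM of these airway genes, and the other 7 libraries held no more than 1.67.

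Interferon-stimulated genes were mostly higher in the hearts labelled T than in S, with a minority that were lower. In edgeR's quasi-likelihood test 22 of the 48 rose (Benjamini-Hochberg adjusted P-value under 0.05), where 10.3% of all genes tested rose. A further 3, Cmpk2, Bst2 and Gbp5, fell, where 11% of all genes fell. The median log2 fold change was 0.48 over the 48 genes and −0.00 over all genes tested, and the median absolute change was 0.57 and 0.23. Of the 48 genes 35 lay above 0 and 13 below. Because the list was chosen with earlier results of these data known, these shares are a description and not an independent test. A second list, described below, had a smaller share that rose. The summed level of all 48 was 672 to 728 CPM in S and 1094 to 1155 CPM in T. All T libraries lay above all S libraries for 26 of them, and all below for 5, against 21.2% and 21.5% of all genes. In bulk tissue, fewer cells of a type and less RNA per cell cannot be told apart.

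In A + T vs. S the values of the list lay nearly all on 1 side. 11 of the 48 rose, where 4.67% of all genes rose, and 0 fell, where 3.64% of all genes fell. The edgeR count of lower genes was also 0 at an unadjusted P-value under 0.05, which 12.5% of all genes met in that direction. With DESeq2 it was 0 at an adjusted P-value under 0.05, where 5.33% of all genes fell. At the thresholds of the study (unadjusted P-value under 0.05 and a fold of at least 1.5) 20 rose, against 5.82% of all genes. Fold changes lay above 0 for 47 genes (for 40 without animal 22), and the median was 0.52 against 0.00 for all genes. Only Gbp5, at −0.17 on the log2 scale (standard error, SE, 0.14), lay below 0. The T and A + T comparisons share the S libraries.

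A + T vs. T had fewer called genes and no common direction. 4 genes rose (Irf1, Cmpk2, Bst2 and Gbp5), where 3.09% of all genes rose, and 5 fell (Eif2ak2, Gbp6, Ifi27, Apol9a and Lgals3bp), where 2.79% of all genes fell. Under upper-quartile normalization 4 rose and 2 fell, against 3.72% and 1.96% of all genes. The median log2 fold change was 0.06, with 24 genes above 0 and 24 below, but the median absolute change was 0.45 against 0.17 for all genes. A + T vs. T shares its T libraries with T vs. S, so the values of a gene in both are given side by side and not as separate evidence. The counts of A + T vs. T turned on single libraries. Without animal 11 of T the higher count was 0 by edgeR, where 0.4% of all genes rose. Leaving out animal 15 of T gave 2, where 2.23% of all genes rose. The lower count was 11 without animal 22 of A + T, where 3.69% of all genes fell. Without any one of the other libraries it was between 1 and 3, where 0.563% to 1.97% of all genes fell. Fitted on A + T and T alone, 1 gene rose and 1 fell, against 0.778% and 0.846% of all genes. At the thresholds of the study, in the fit of all 9 libraries, 11 rose, against 6.5% of all genes. Lower at these thresholds were Usp18, Ifit1, Gbp6, Ifi27 and Apol9a, and the share of all genes in that direction is not given here.

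**Figure D1:**
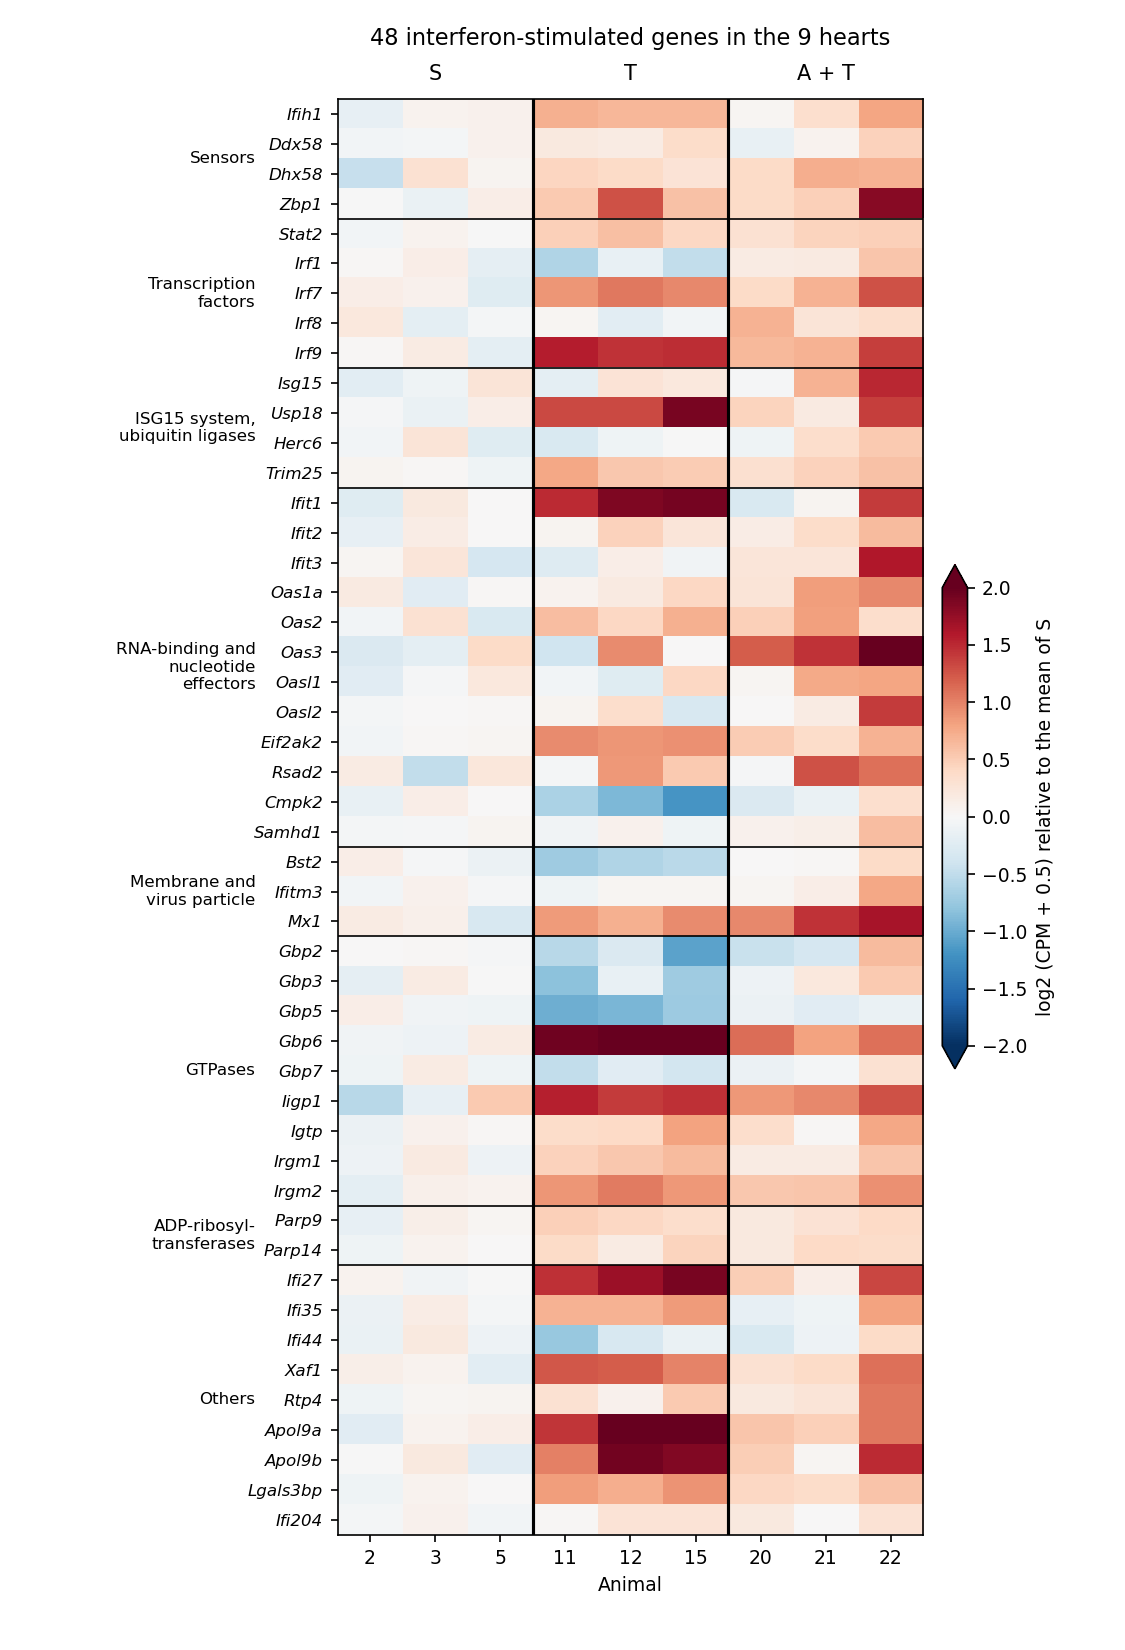
Level of the 48 interferon-stimulated genes (rows, grouped by role) in the 9 libraries (columns, by animal), as the log2 of CPM plus 0.5 relative to the mean of S. The T columns are red for most rows and blue for, among others, Irf1, Cmpk2, Bst2 and the Gbp2, Gbp3, Gbp5 and Gbp7 rows, and animal 22 is the reddest A + T column, being the highest of its group for 41 genes.

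The promoters give a view of the list that does not use the counts. RefSeq promoter sequences (GRCm38.p6, 250 bases before to 50 after each start) were at hand for 36 of the 48 genes. The core of the ISRE, GAAA followed by any 2 bases and a second GAAA, on either strand, was found in 21 of the 36 (58.3%), against 3.99% of 27025 genes. GAS, TTC and GAA separated by any 3 bases, reads the same on both strands and was found in 13 of the 36 (36.1%), against 9.55% of all genes. A stretch that matched both motifs was counted under both. An ISRE match was present for 8 of the 14 genes with a sequence that rose in T vs. S, for 2 of the 3 that fell and for 11 of the 19 that were not called. GAS was found for 3 of the 14, for 2 of the 3 and for 8 of the 19. A match describes letters in this window and says nothing about binding.

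The windows of 7 genes are shown because they set ISRE matches (capitals, on either strand) beside opposite results in T vs. S. Each is 80 bases of the RefSeq promoter sequence, written 5′ to 3′ on the strand of the gene. Ifit1 (chr19:34640759-34640838, plus strand), Irgm2 (chr11:58214878-58214957, plus), Apol9a (chr15:77411092-77411171, minus) and Apol9b (chr15:77729003-77729082, plus) rose in T vs. S.
Ifit1: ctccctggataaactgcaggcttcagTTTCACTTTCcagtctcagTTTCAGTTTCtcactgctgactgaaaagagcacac
Irgm2: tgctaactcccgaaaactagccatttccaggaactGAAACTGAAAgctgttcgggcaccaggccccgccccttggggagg
Apol9a: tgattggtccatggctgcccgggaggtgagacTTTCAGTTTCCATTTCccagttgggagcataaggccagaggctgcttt
Apol9b: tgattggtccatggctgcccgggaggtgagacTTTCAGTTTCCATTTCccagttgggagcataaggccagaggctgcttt
The windows of Apol9a and Apol9b are letter for letter the same. Isg15 (chr4:156200846-156200925, minus), which was not called, has overlapping matches in 1 run, the nearest 56 bases before its start.
Isg15: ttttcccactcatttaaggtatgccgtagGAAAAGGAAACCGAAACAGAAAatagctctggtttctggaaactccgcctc
Bst2 (chr8:71537555-71537634, minus) and Gbp5 (chr3:142496734-142496813, plus) fell in T vs. S, and each also holds a match.
Bst2: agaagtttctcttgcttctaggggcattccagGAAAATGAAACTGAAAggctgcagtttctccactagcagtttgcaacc
Gbp5: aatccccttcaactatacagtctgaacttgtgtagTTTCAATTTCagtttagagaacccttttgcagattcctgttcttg

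Among the 4 sensors, Ifih1, the RNA helicase MDA5 that detects long viral RNA, was the 1 that rose in T vs. S. It stood at 8.51, 10.1 and 10.3 CPM in S, at 16.1, 15.5 and 15.6 in T, and at 9.89, 12.3 and 17.1 for A + T. T lay clear of S, a log2 fold change of 0.71 (SE 0.18, adjusted P = 0.0175), while A + T overlapped both. Zbp1, which recognises Z-form nucleic acid and can trigger necroptosis, was at 0.884, 0.761 and 1.01 CPM in S, at 1.49, 2.85 and 1.59 in T, and at 1.30, 1.44 and 4.37 for A + T. Its groups T and S did not overlap, yet its log2 fold change of 1.18 (SE 0.50) was not called (adjusted P = 0.121). Dhx58, the regulatory helicase LGP2, was at 1.27, 2.49 and 2.02 CPM in S, 2.79, 2.67 and 2.43 in T, and 2.66, 3.52 and 3.45 for A + T, with overlap of T and S (0.45, adjusted P = 0.248). Ddx58, the helicase RIG-I that detects short RNA ends, was not called either, at 0.25 in T vs. S (adjusted P = 0.259). The 4 sensors ranged in A + T vs. T from −0.26 to 0.28, none called by edgeR or DESeq2.

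Of 5 transcription factors, both listed parts of the ISRE complex rose in both comparisons with S. Irf9, its DNA-binding subunit (chr14:55603571-55610030), stood at 15.1, 16.7 and 12.9 CPM in S, at 45.3, 41.5 and 42.5 in T, and at 23.7, 24.5 and 39.7 for A + T. No library of 1 group overlapped another. The log2 fold change was 1.53 in T vs. S (SE 0.18, adjusted P = 0.000525) and 0.97 in A + T vs. S (adjusted P = 0.0132). Stat2 had a narrow spread, with 16.8, 18.3 and 17.4 CPM in S, 24.6, 26.7 and 23.6 in T, and 21.8, 24.0 and 24.5 for A + T. It rose by 0.51 in T vs. S (SE 0.09, adjusted P = 0.00305) and by 0.42 in A + T vs. S (adjusted P = 0.0200). Irf7, the factor that amplifies interferon alpha production, was at 13.2, 12.7 and 10.05 CPM in S, 22.4, 25.4 and 23.8 in T, and 15.8, 19.7 and 29.6 for A + T. Both groups lay above S, by 0.99 (adjusted P = 0.0070) and 0.85 (adjusted P = 0.0304), and the second value was 0.56 without animal 22.

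The other 2 factors behaved differently in T. Irf1, which is induced mainly by interferon gamma, was at 15.4 ± 1.76 CPM in S, 11.5 ± 2.01 in T, and 19.2 ± 3.18 for A + T. Its T value did not differ from S at the threshold (−0.42, adjusted P = 0.0871), and A + T vs. T was 0.73 (SE 0.16, adjusted P = 0.0275) without overlap. Irf8, a factor of macrophages and dendritic cells, was at 5.24 ± 0.824, 4.96 ± 0.471 and 7.35 ± 1.31 CPM and was called in no comparison by edgeR, with 0.57 in A + T vs. T (adjusted P = 0.0945).

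The ISG15 system is a ubiquitin-like modification, and its members did not move as 1 block. Usp18, the protease that removes ISG15 and dampens the receptor, stood at 3.21, 2.94 and 3.61 CPM in S, 8.86, 8.91 and 13.6 in T, and 4.64, 3.73 and 9.30 for A + T. T lay clear of S by 1.68 on the log2 scale (SE 0.32, adjusted P = 0.0049), and animal 22 alone of A + T reached the T range. Isg15 itself was at 2.76, 3.04 and 3.98 CPM in S, 2.79, 4.04 and 3.83 in T, and 3.21, 5.60 and 10.2 for A + T. T and S overlapped (0.13, standard error 0.37, adjusted P = 0.837), and A + T vs. S was 0.97 (adjusted P = 0.123). Trim25, a ubiquitin ligase that activates RIG-I, rose in both comparisons with S. Its CPM were 37.6, 37.0 and 34.2 in S, 62.0, 53.1 and 51.7 in T, and 45.6, 49.9 and 54.9 for A + T, log2 fold changes of 0.62 for T vs. S (SE 0.10, adjusted P = 0.00202) and 0.47 for A + T vs. S (adjusted P = 0.0195). Herc6, the mouse ligase that attaches ISG15, was at 5.997 ± 1.15, 5.47 ± 0.628 and 7.42 ± 1.63 CPM and was not called by edgeR (−0.14 in T vs. S, adjusted P = 0.655).

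The RNA-binding and nucleotide effectors, 12 genes, were divided in T vs. S, with 3 that rose, 1 that fell and 8 that were not called. Eif2ak2, the kinase PKR that halts translation on double-stranded RNA (chr17:78852564-78882573), had the narrowest groups. It stood at 27.6, 29.2 and 29.5 CPM in S, 55.7, 53.5 and 54.6 in T, and 41.1, 37.4 and 47.0 for A + T. The 3 groups were separate from each other, with 0.92 in T vs. S (SE 0.09, adjusted P = 0.000184), −0.38 in A + T vs. T (adjusted P = 0.0337) and 0.54 in A + T vs. S (adjusted P = 0.00816). The fall in A + T vs. T was called in 1 of the 9 fits that left out a library, the one without animal 22.

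The 3 Ifit genes, which bind foreign RNA ends and lie together on chromosome 19, gave unlike values. Ifit1 (chr19:34640871-34650009) stood at 8.35, 11.5 and 9.98 CPM in S, 28.9, 37.4 and 38.9 in T, and 7.97, 10.3 and 27.0 for A + T. It rose by 1.81 in T vs. S (SE 0.37, adjusted P = 0.00696). Against T, A + T was at −1.21 (adjusted P = 0.0775), and without animal 22 it fell by 1.94 (adjusted P = 0.00122). Ifit2 was at 16.1 ± 1.77 CPM in S and 19.3 ± 2.82 in T (0.26, adjusted P = 0.238), and Ifit3 at 11.2 ± 2.28 and 10.7 ± 1.54 (−0.07, adjusted P = 0.912). Ifit3 has a near-identical neighbour, Ifit3b, so its reads may be divided between the 2. The difference between Ifit1 and its neighbours was not tested.

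Cmpk2, a mitochondrial nucleotide kinase, fell in T and lay at the S level in A + T. Its CPM were 8.18, 10.04 and 9.18 in S, 5.70, 4.69 and 3.74 in T, and 7.42, 8.32 and 11.7 for A + T. The T libraries lay below all others, with −0.94 in T vs. S (SE 0.21, adjusted P = 0.00985), 0.94 in A + T vs. T (adjusted P = 0.0289) and 0.00 in A + T vs. S (SE 0.20). Cmpk2 lies next to Rsad2 on chromosome 12 (26469204 to 26479837 and 26442746 to 26456452). Rsad2, viperin, which makes a chain-terminating nucleotide, was at 20.2 ± 5.27, 28.7 ± 8.92 and 37.8 ± 15.8 CPM and was not called (0.51 in T vs. S, adjusted P = 0.309).

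The oligoadenylate synthetases make the messenger that activates RNase L. Oas2 rose in T vs. S, from 7.75 ± 1.76 to 11.9 ± 1.29 CPM (0.60, standard error 0.19, adjusted P = 0.0419). Oas3 was at 0.442, 0.507 and 1.01 CPM in S, 0.372, 1.72 and 0.655 in T, and 2.16, 2.65 and 4.56 for A + T. Its A + T libraries lay above all others, a log2 fold change of 2.29 over S (SE 0.53, adjusted P = 0.0281), from 8 to 14 counts per S library and 35 to 74 per A + T library. Oas1a, Oasl1 and Oasl2 were not called in any comparison, with 0.27, 0.06 and 0.07 in T vs. S. Oas1a has a close copy, Oas1g, which may share its reads. Samhd1, which hydrolyses nucleotides, was at 36.4 ± 1.38 CPM in S, 35.9 ± 2.34 in T, and 44.8 ± 9.81 for A + T (−0.02 in T vs. S, adjusted P = 0.938).

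Each of the 3 membrane and virus-particle genes went its own way. Bst2, tetherin, which holds budding virus at the cell surface (chr8:71534255-71537456), stood at 12.7, 11.3 and 10.6 CPM in S, 6.81, 7.37 and 7.76 in T, and 11.6, 11.6 and 15.1 for A + T. T lay below both other groups, which overlapped each other, with −0.66 in T vs. S (SE 0.14, adjusted P = 0.00897) and 0.81 in A + T vs. T (adjusted P = 0.0130). Mx1, a GTPase that can block influenza virus, was near the floor in S, with 9, 9 and 3 counts. It had 18, 16 and 13 counts in T, and 20, 27 and 37 for A + T. Its CPM were 0.390 ± 0.152 in S, 1.09 ± 0.134 in T, and 1.82 ± 0.531 for A + T. It rose by 1.42 in T vs. S (SE 0.39, adjusted P = 0.0273) and by 2.16 in A + T vs. S (adjusted P = 0.00923). Ifitm3, which stops virus fusion in endosomes, was the member with the highest level per length in the deposited log2 values (mean 6.52 over the 9 libraries). Its CPM were 53.2, 58.6 and 54.3 in S, 52.0, 56.7 and 56.6 in T, and 57.1, 61.1 and 95.2 for A + T, the last from animal 22. T vs. S was −0.01 (SE 0.16, adjusted P = 0.979).

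**Figure D2:**
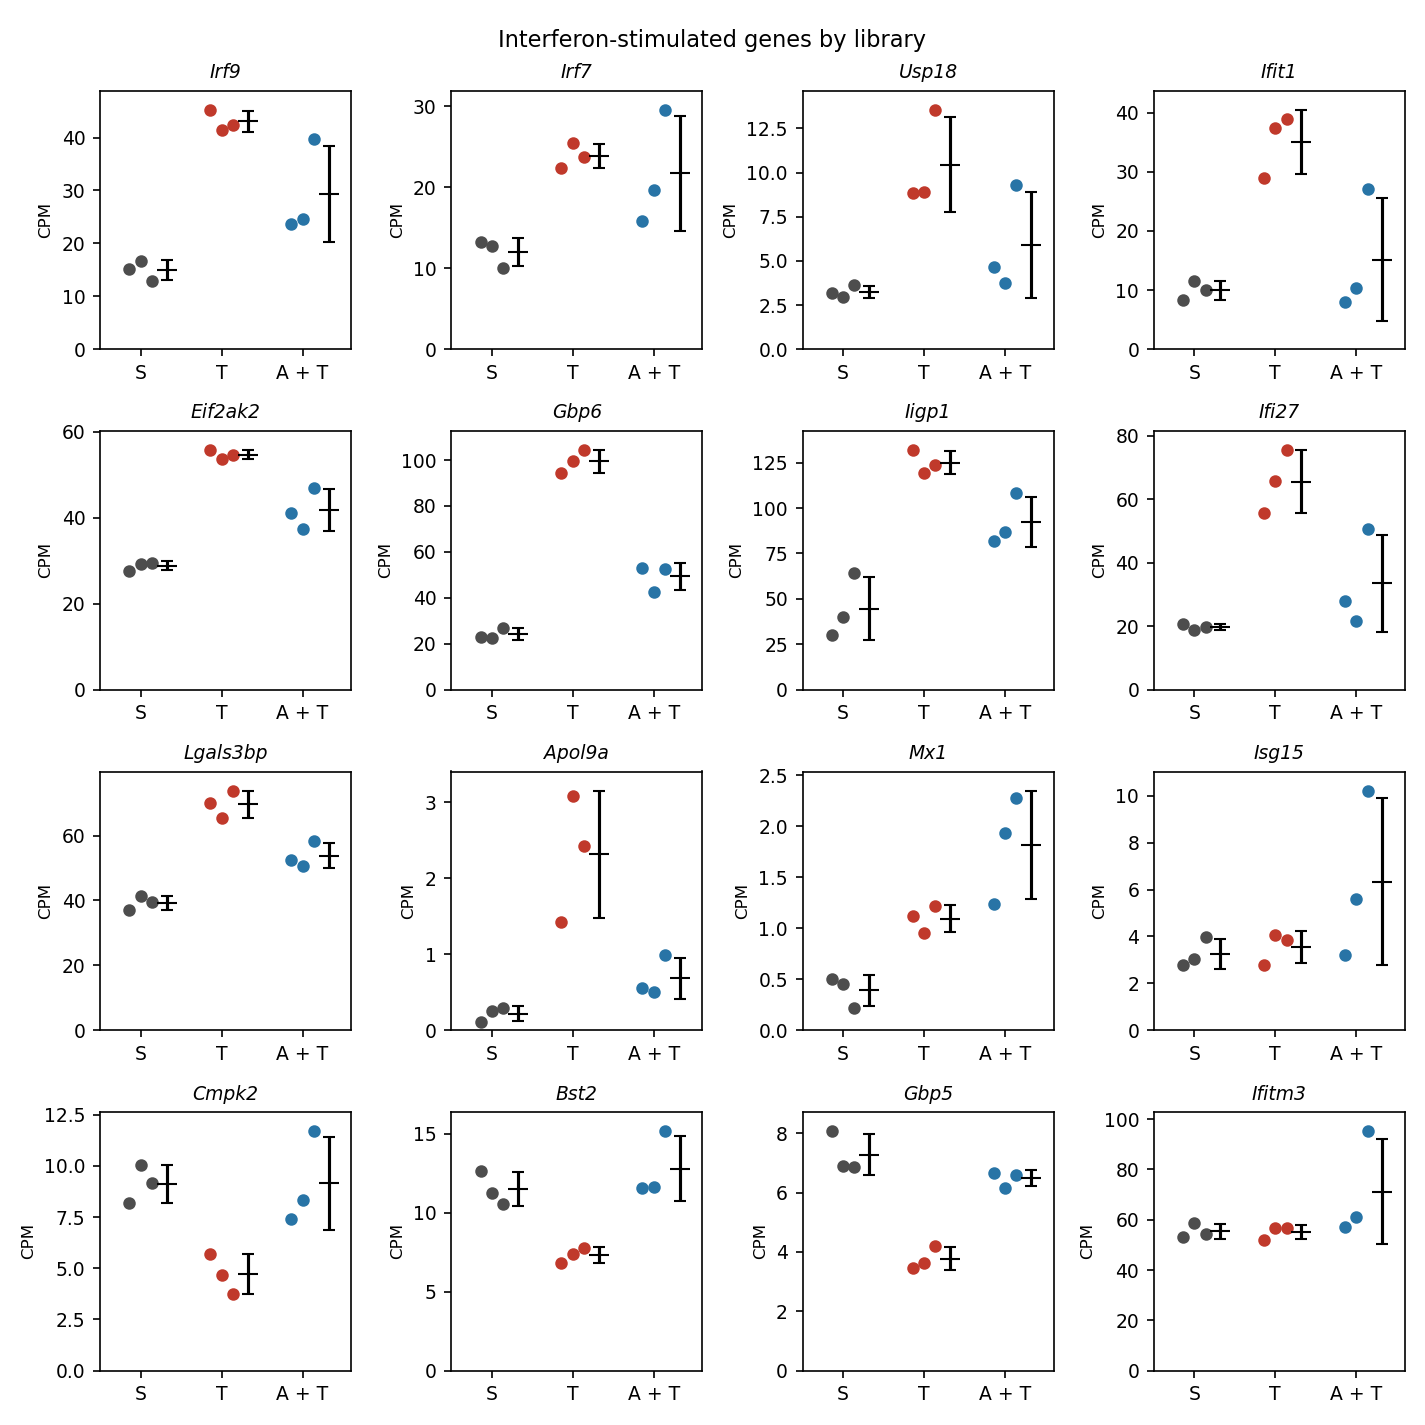
CPM of 16 interferon-stimulated genes by library, 3 points per group in the order of the animal numbers, with the group mean and SD at the right of each group. The T points stand above S in the panels from Irf9 to Mx1 and below S for Cmpk2, Bst2 and Gbp5, and 1 A + T point, animal 22, stands apart for Usp18, Ifit1, Isg15 and Ifitm3.

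The GTPases, which assemble on membranes around intracellular pathogens, held the gene with the smallest P-value of the list and also 1 of those that fell. Gbp6 (chr5:105270702-105293698) stood at 23.1, 22.4 and 27.0 CPM in S, 94.3, 99.7 and 104 in T, and 53.0, 42.6 and 52.7 for A + T. The 3 groups were far apart against their spread, with 2.04 in T vs. S (SE 0.11, adjusted P = 1.38e-05), −1.01 in A + T vs. T (adjusted P = 0.00248) and 1.04 in A + T vs. S (adjusted P = 0.00136). Gbp6 was called in each of these comparisons whichever library was left out. It has a close relative, Gbp10, with which it may share reads.

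The 4 guanylate-binding proteins on chromosome 3, which lie side by side between 142493978 and 142638008, had values below 0 in T vs. S. Gbp5, which also promotes inflammasome assembly, was at 8.07, 6.90 and 6.87 CPM in S, 3.47, 3.62 and 4.21 in T, and 6.68, 6.17 and 6.59 for A + T. It fell by 0.96 in T vs. S (SE 0.15, adjusted P = 0.00171), and A + T vs. T was 0.79 (adjusted P = 0.0171). Gbp2, Gbp3 and Gbp7 were at −0.60, −0.57 and −0.37 in T vs. S (adjusted P = 0.146, 0.106 and 0.0797). Their A + T vs. T values were 0.64, 0.81 and 0.43 and were not called. Without animal 22 of A + T in the fit, Gbp2 and Gbp7 passed the threshold in T vs. S (adjusted P = 0.0184 and 0.0323).

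Of the 4 immunity-related GTPases of the list, a family expanded in mice, 3 rose in T vs. S. Iigp1, which had the third highest level per length of the list (mean 4.65 in the deposited log2 values), stood at 30.1, 39.8 and 64.1 CPM in S, 132, 119 and 124 in T, and 82.1, 87.0 and 108 for A + T. Both groups lay above S, by 1.49 (SE 0.22, adjusted P = 0.00155) and 1.06 (adjusted P = 0.0200), although S itself ranged from 30.1 to 64.1. Irgm2 was at 13.1, 16.1 and 15.8 CPM in S, 28.1, 31.6 and 28.0 in T, and 22.1, 22.3 and 28.8 for A + T, a rise of 0.96 (SE 0.13, adjusted P = 0.000869) and of 0.70 in A + T vs. S (adjusted P = 0.0116). Irgm1 rose by 0.55 in T vs. S (adjusted P = 0.0125), from 21.05 ± 2.55 to 30.9 ± 1.96 CPM. Igtp was at 0.55 (adjusted P = 0.0735) and was not called. Of the same family outside the list, Tgtp1, Tgtp2 and Ifi47 were at −0.01, −0.81 and −0.24 and were not called (adjusted P = 0.986, 0.196 and 0.709). The annotated spans of Igtp and Irgm2 overlap on chromosome 11, so reads may be divided between them.

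Both ADP-ribosyltransferases, which modify proteins at sites of antiviral signalling, rose slightly in T vs. S. Parp9 was at 19.6, 23.9 and 22.6 CPM in S, 31.0, 29.5 and 28.3 in T, and 25.2, 27.1 and 29.3 for A + T (0.43, standard error 0.10, adjusted P = 0.0113). Parp14 was at 36.1, 40.5 and 38.8 CPM in S, 50.4, 43.1 and 52.6 in T, and 44.1, 51.0 and 49.8 for A + T (0.34, adjusted P = 0.0309). Its call held in 4 of the 9 fits without a library. Their A + T vs. S values were 0.30 and 0.33 and were not called (adjusted P = 0.0786 and 0.0616).

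Of the 9 remaining genes 6 rose in T vs. S. Lgals3bp, a secreted galectin-binding glycoprotein, had separate groups, with 37.0, 41.2 and 39.5 CPM in S, 70.1, 65.3 and 73.6 in T, and 52.6, 50.6 and 58.3 for A + T. Its log2 fold changes were 0.83 in T vs. S (SE 0.08, adjusted P = 0.000221), −0.37 in A + T vs. T (adjusted P = 0.0299) and 0.46 in A + T vs. S (adjusted P = 0.0117). The call in A + T vs. T held in 4 of the 9 fits without a library. Ifi27, a small mitochondrial and nuclear envelope protein, had the second highest level per length (mean 5.02 in the deposited log2 values). It stood at 20.8, 18.9 and 19.7 CPM in S, 55.6, 65.8 and 75.4 in T, and 28.1, 21.7 and 50.7 for A + T. It rose by 1.73 in T vs. S (SE 0.26, adjusted P = 0.00146) and fell by 0.96 in A + T vs. T (adjusted P = 0.0493), the latter call held in 1 of the 9 fits without a library. All A + T libraries lay below all T libraries for Ifi27.

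Apol9a had the highest fold change of the list on the fewest counts, 2, 5 and 4 in S, 23, 52 and 26 in T, and 9, 7 and 16 for A + T. These are 0.111, 0.254 and 0.289 CPM in S, 1.42, 3.09 and 2.43 in T, and 0.556, 0.502 and 0.985 for A + T. The log2 fold change was 3.39 in T vs. S (SE 0.47, adjusted P = 0.0011) and −1.74 in A + T vs. T (adjusted P = 0.0342). The latter call held in 2 of the 9 fits without a library. Apol9b, a near-identical relative of Apol9a on the same chromosome, was at 0.335 ± 0.120 CPM in S and 2.13 ± 0.825 in T (2.59, adjusted P = 0.0119). The authors' counting may have divided reads between the 2. Xaf1, which opposes an inhibitor of caspases, rose from 6.08 ± 0.764 to 14.2 ± 1.33 CPM (1.22, adjusted P = 0.00345), and Ifi35 from 15.3 ± 1.45 to 26.1 ± 1.63 CPM (0.77, adjusted P = 0.0346). Ifi44, the chaperone Rtp4 and the DNA-binding Ifi204, which has close relatives, were at −0.43, 0.33 and 0.20 in T vs. S and were not called.

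**Figure D3:**
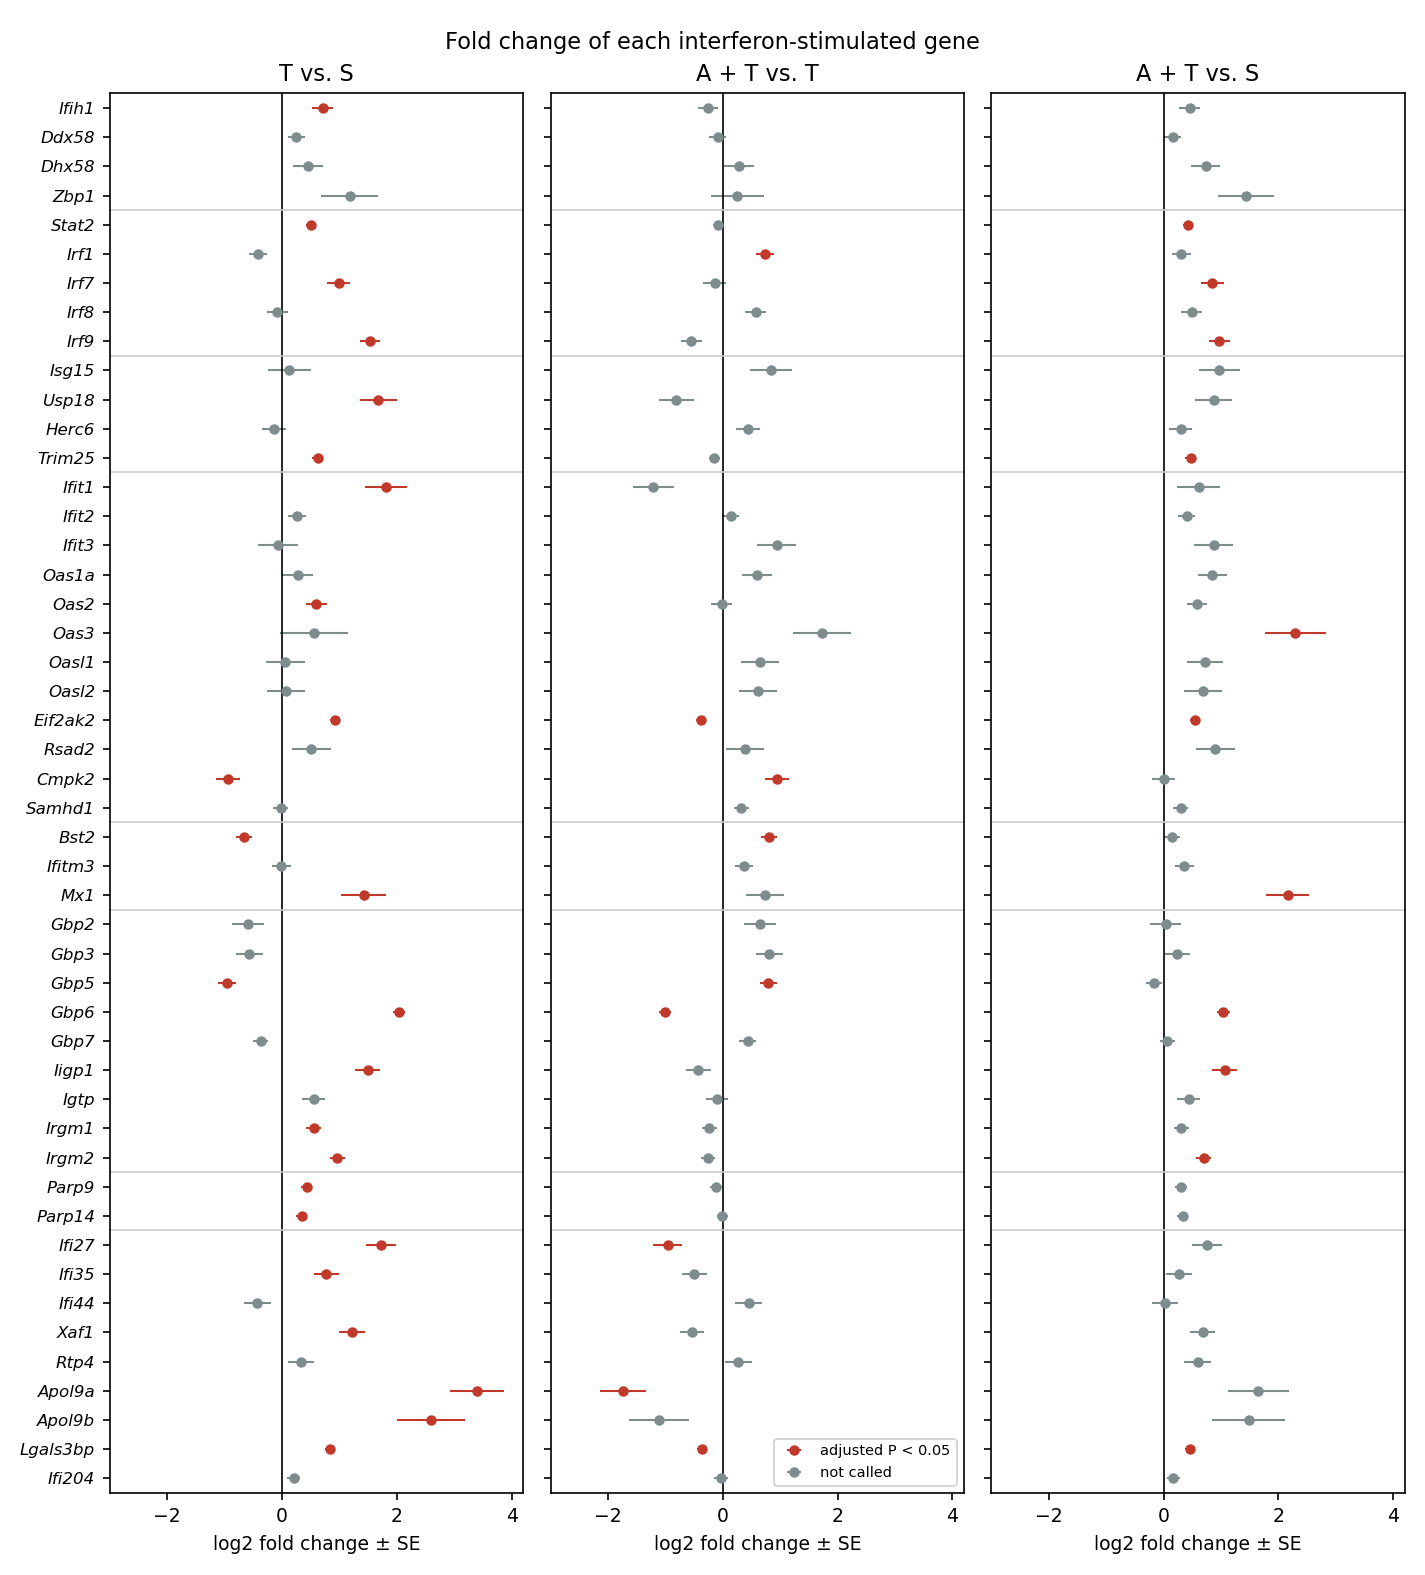
Log2 fold change of each of the 48 genes with its standard error in the 3 comparisons (1 panel each), with genes at an adjusted P-value under 0.05 in red. T vs. S spreads from −0.96 (Gbp5) to 3.39 (Apol9a), and in A + T vs. S all points but Gbp5 lie at or above 0.

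Calls in T vs. S rested less on single animals than those in the other comparisons. Of the 25 called genes 19 were called whichever of the 9 libraries was left out, and Ifih1, Oas2, Mx1, Irgm1, Parp14 and Ifi35 lost the call in at least 1 fit. The higher count was 16 to 24 in these fits, where 6.48% to 14.4% of all genes rose. The lower count was 5 when animal 12 of T was left out, where 8.52% of all genes fell. It was 6 for animal 22 of A + T, where 13.9% fell. For A + T vs. T, Gbp6 alone of the 9 called genes kept its call throughout. The same held for A + T vs. S in 3 of the 11, Eif2ak2, Mx1 and Gbp6. The higher count there was 3 without animal 2 of S and 6 without animal 3 of S, where 1.25% and 1.22% of all genes rose.

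Animal 22 stood apart from the other A + T hearts across the list. It was the highest of its group for 41 of the 48 genes (85.4%), where it was the highest for 40.4% of all genes tested. It was the highest of all 9 libraries for 24 genes. For 6 genes, Zbp1, Usp18, Ifit1, Ifit3, Oasl2 and Apol9b, it was over 2-fold above each of the other A + T animals. Shares of all genes were not computed for the counts of 24 and 6. The summed level of the list was 865 CPM in animal 20, 925 in animal 21 and 1259 in animal 22, the last above every T library. Without animal 22 the median of A + T vs. S was 0.32 with 10 genes higher, where 3.8% of all genes rose. The median of A + T vs. T was then −0.06. The part of its airway and neutrophil markers in these levels was not tested.

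Some markers of other cell types moved with the groups. Endothelial markers summed to 714 to 836 CPM in S, 418 to 521 in T, and 542 to 633 for A + T, and 4 of the 5 (Cdh5, Kdr, Tie1 and Emcn) fell in T vs. S. Fibroblast markers summed to 1153 to 1374 CPM in S, 761 to 885 in T, and 927 to 1316 for A + T, and all 5 fell in T vs. S. Macrophage and monocyte markers were similar in S (354 to 401 CPM) and T (338 to 458) and were at 639 to 867 in A + T, with 7 of 11 higher in A + T vs. T. Cardiomyocyte markers summed to 62401 to 67796 CPM in S, 50909 to 60661 in T, and 45816 to 62907 for A + T. Actc1 fell in T vs. S (−0.90), Tnnt2 and Pln rose (0.34 and 0.38), and the others of that list were not called. Neutrophil markers were at 1.66 to 14.7 CPM in S and 13.8 to 17.8 in T. Siglech, a marker of plasmacytoid dendritic cells, which make much interferon, was at 1.01 to 1.44 CPM in S, 0.372 to 1.07 in T, and 0.144 to 0.308 for A + T, and it did not pass the filter on low counts. The other gene of that marker list in the counts, Cox6a2, is a heart muscle gene, at 852 ± 58.1 CPM in S and 1071 ± 176 in T. Atrial markers summed to 2999 to 3083 CPM in S, 861 to 4552 in T, and 793 to 2054 for A + T, and 1 of the 5, Bmp10, fell in T vs. S. Adipocyte markers summed to 68.2 CPM in animal 12 of T and to no more than 15.8 in the other libraries. The part of these cell types in the interferon-stimulated genes was not tested.

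**Figure D4:**
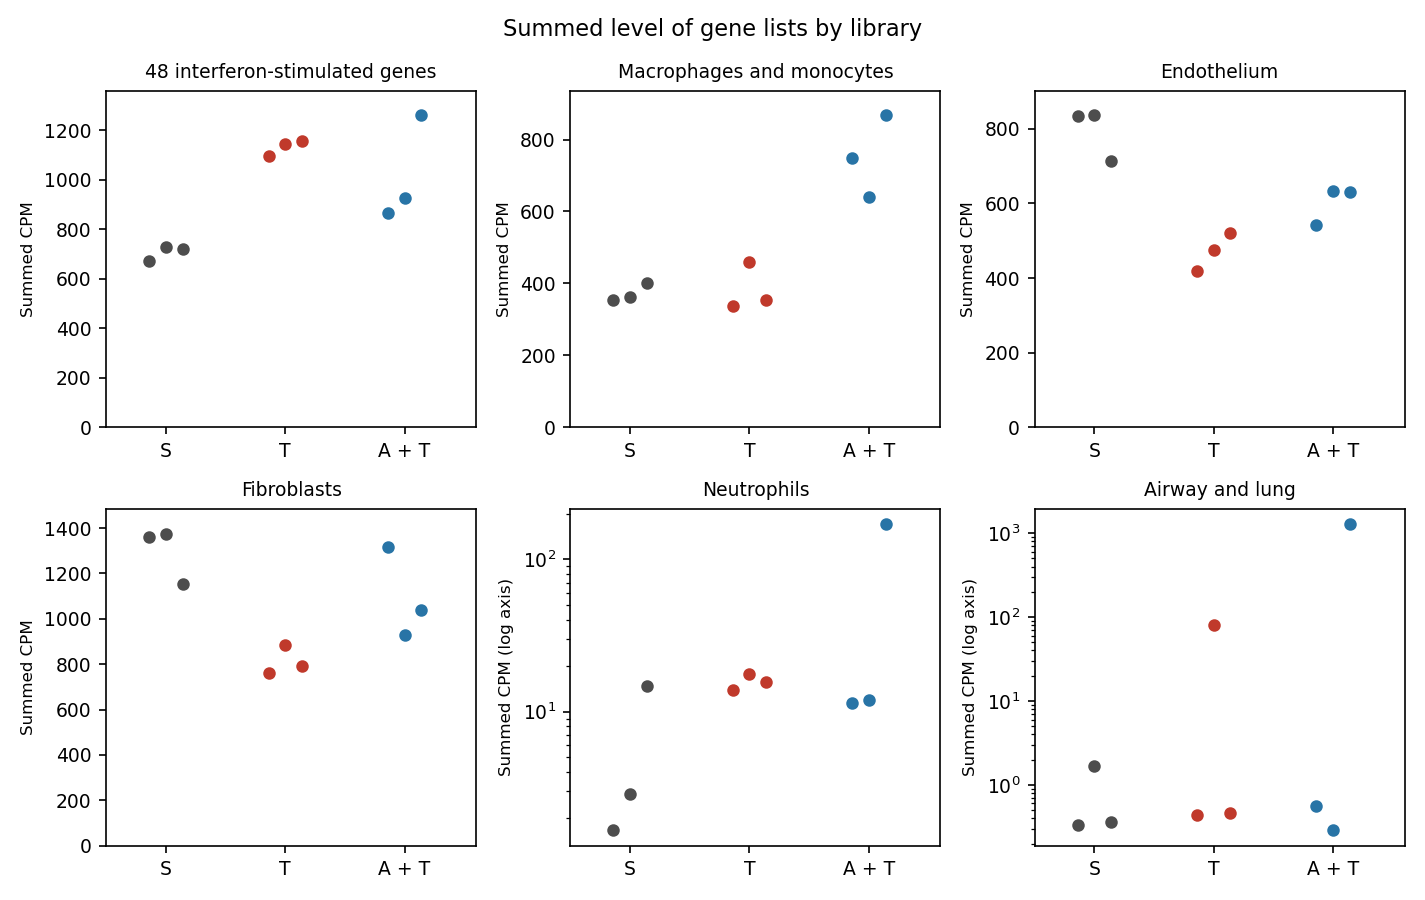
Summed CPM of the 48 interferon-stimulated genes and of 5 marker lists by library (the neutrophil and the airway panels have a log axis). The interferon-stimulated genes are at 672 to 728 CPM in S and 1094 to 1155 in T, macrophage markers are high in A + T only as a group (639 to 867), and animal 22 is the outlying A + T point for neutrophil and airway genes.

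Upstream of these genes, the signal itself was not seen directly. The 21 interferon ligand genes listed were not among the genes analysed here. The 27 genes listed for receptors and kinases, sensor adaptors and negative regulators had 3 that rose and 3 that fell in T vs. S, with a median of 0.08. That is 11.1% in each direction, close to the 10.3% and 11% of all genes. Socs3, an inhibitor of JAK kinases that is also induced by interleukin-6 family cytokines, stood at 6.41, 7.51 and 9.47 CPM in S, at 21.6, 33.6 and 17.1 in T, and at 13.04, 16.6 and 24.1 for A + T. Both groups lay above S. Socs3 rose by 1.65 in T vs. S (adjusted P = 0.00296) and by 1.21 in A + T vs. S (adjusted P = 0.0292). Ifnlr1, a receptor chain for interferon lambda, and Pias1, an inhibitor of Stat signalling, rose by 0.74 and 0.39 in T vs. S. Ifngr2, a chain of the interferon gamma receptor, and the adaptors Mavs and Traf3 fell by 0.45, 0.39 and 0.69. The interferon alpha receptor chains Ifnar1 and Ifnar2 were at −0.08 and −0.01 (adjusted P = 0.478 and 0.941).

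A second list of 51 interferon-stimulated genes outside the 48 was set beside them, of which 45 were tested. In T vs. S 10 rose (22.2%, against 10.3% of all genes) and 5 fell (11.1%, against 11%), and the median was 0.13. Gbp10 rose by 2.33 (adjusted P = 0.00111), Oas1c by 1.46 (adjusted P = 0.0047) and Ddx60, a helicase, by 1.32 (adjusted P = 0.00179). Ifit1bl1, Oas1b, Mx2, Parp10, Parp12, Dtx3l (the ligase partner of Parp9) and Nmi also rose. Cxcl9, a chemokine induced by interferon gamma, fell by 2.29 (adjusted P = 0.000876), and Gbp4, Sp100, Ifi203 and Lgals9 fell by 0.60 to 0.87. In A + T vs. T 5 rose (11.1%, against 3.09%), Gbp4, Slfn8, Sp100, Ifi203 and Cxcl9. In A + T vs. S 3 rose (6.67%, against 4.67%), Gbp10, Slfn8 and Ddx60. Ifitm2 and Helz2, at −0.05 and −0.02 in T vs. S, were among those not called.

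Some variation within groups followed animals and not groups, and was picked after the values were seen. Rsad2 was at 22.8, 14.2 and 23.7 CPM in S, 19.6, 37.4 and 29.3 in T, and 19.8, 49.6 and 43.9 for A + T, so animals 12, 21 and 22 were the highest. Ube2l6, the conjugating enzyme for ISG15, was at 37.7, 24.7 and 38.2 CPM in S, 35.9, 71.6 and 37.4 in T, and 21.5, 74.0 and 80.6 for A + T. Isg20, an exonuclease, was highest in the same 3 animals, at 19.1, 15.6 and 25.7 CPM. Alas2, the heme synthesis enzyme of red blood cell precursors, was at 284, 283 and 341 CPM in these animals and at 68.4 to 147 in the other 6. The part of erythroid cells in Rsad2, Ube2l6 and Isg20 was not tested.

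**Figure D5:**
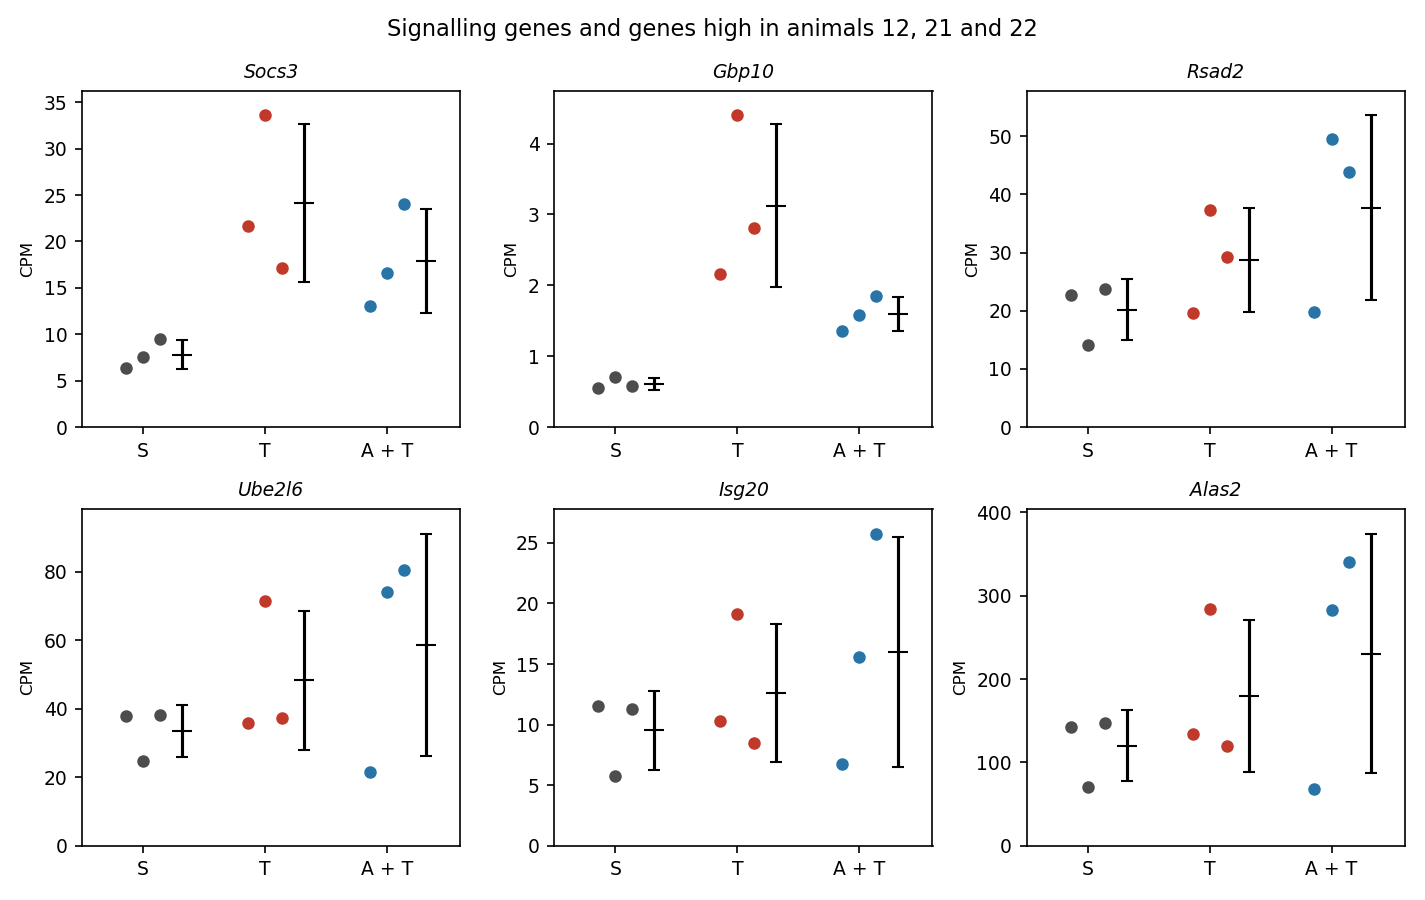
CPM of Socs3, Gbp10, Rsad2, Ube2l6, Isg20 and Alas2 by library, 3 points per group in the order of the animal numbers, with the group mean and SD. Socs3 is at 17.1 to 33.6 CPM in T against 6.41 to 9.47 in S, and the middle T point (animal 12) and 2 A + T points (animals 21 and 22) are the high ones for Rsad2, Ube2l6, Isg20 and Alas2.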

How the data were processed

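Per the labels and the study's methods, heart RNA was purified with Trizol and miRNeasy and made into libraries with the KAPA mRNA Hyper Prep kit. Paired reads from an Illumina HiSeq were aligned by STAR to mm10, and uniquely mapped reads were assigned to refGene genes by featureCounts with strand. The authors deposited raw counts per gene and log2 normalized values, which differed from log2 CPM by an amount per gene that mostly varied little over libraries (SD of the difference: median 0.00282, highest 0.735, over 13167 genes) and that tracked exonic length (Pearson r = 0.79 across genes). Levels between genes were therefore taken from these log2 values.

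Groups came from the sample labels. Genes with CPM under 0.5 in more than 4 libraries were removed, as in the study. Counts were fitted with edgeR 4.0.16 (R 4.3.3; TMM, quasi-likelihood test, all 9 libraries in 1 fit), with Benjamini-Hochberg adjustment over 13364 genes. Standard errors are the absolute log2 fold change divided by the square root of F. The procedure was tested on simulated data. The reads of Rn45s, a ribosomal RNA gene, made up 4.57% to 19.6% of the counts. Gene positions are those of GENCODE M21 on GRCm38, the build of mm10.

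The 48 genes, their roles and all gene lists were chosen with earlier results of these data known, and 1 gene of the pathway list is not reported here. Each gene is named, with values in every library for up to 3 genes per role with the smallest P-values in T vs. S or A + T vs. T and for the 3 with the highest level per length. Oas3, Apol9a and Mx1 are also given by counts, a choice made after their values were seen. Alternatives were DESeq2 1.42.0, other normalizations and filters, limma 3.58.1 on the deposited log2 values, the thresholds of the study, each animal left out, and, chosen after seeing the data, both libraries with airway genes left out.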

Additional observations from a re-analysis of the deposited data

How the results depend on the processing

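Counts of called genes that moved by over 1.5 times are given here by setting. The share of all genes called in the same direction is in brackets. In T vs. S the 3 lower genes became 5 when only the groups compared were fitted (12.8%). They became 7 without animal 12 of T and animal 22 of A + T (12.8%). With 1 animal left out they became 3 to 6 (6.54% to 13.9%), and the 22 higher became 16 to 24 (6.48% to 14.4%). In A + T vs. T the 4 higher genes became 7 with DESeq2 (4.39%) and 1 with only the groups compared (0.778%). They became 11 at the thresholds of the study (6.5%) and 0 to 5 with 1 animal left out (0.4% to 3.8%). The 5 lower genes became 2 under upper-quartile normalization (1.96%) and 1 with only the groups compared (0.846%). They became 10 without animals 12 and 22 (3.24%) and 1 to 11 with 1 animal left out (0.563% to 3.69%). In A + T vs. S the 11 higher genes became 7 with scaling by library size only (2.42%). They became 20 at the thresholds of the study (5.82%) and 3 to 16 with 1 animal left out (1.22% to 4.71%). The causes were not tested. Over all alternatives the 45 calls of single genes kept their side of the threshold 781 times and lost it 113 times, with no change of direction.

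Signs changed only for values that were not called. Without animals 12 and 22, T vs. S became 0.01 for Irf8, −0.34 for Oas3 and −0.10 for Oasl2, A + T vs. T became −0.17 for Zbp1 and −0.19 for Rtp4, and A + T vs. S became −0.03 for Ddx58, −0.12 for Ifit1, −0.39 for Gbp2, −0.08 for Gbp7, −0.13 for Ifi35 and −0.22 for Ifi44. Upper-quartile normalization gave 0.02 for Oas2, 0.04 for Parp14 and 0.02 for Ifi204 in A + T vs. T, library size only gave 0.02 for Parp14, and the deposited log2 values gave −0.05 for Gbp2 in A + T vs. S. With 1 animal left out, T vs. S ranged from −0.18 to 0.06 for Irf8, −0.26 to 0.02 for Herc6, −0.21 to 0.08 for Ifit3, −0.35 to 0.97 for Oas3, −0.18 to 0.24 for Oasl1, −0.11 to 0.23 for Oasl2, −0.07 to 0.02 for Samhd1 and −0.03 to 0.03 for Ifitm3. A + T vs. T ranged from −0.29 to 0.04 for Ddx58, −0.55 to 0.63 for Zbp1, −0.43 to 0.05 for Irf7, −0.17 to 0.07 for Oas2, −0.33 to 0.06 for Igtp, −0.09 to 0.05 for Parp14, −0.08 to 0.42 for Rtp4 and −0.11 to 0.05 for Ifi204. A + T vs. S ranged from −0.03 to 0.29 for Ddx58, −0.12 to 0.92 for Ifit1, −0.39 to 0.24 for Gbp2, −0.08 to 0.15 for Gbp7, −0.13 to 0.44 for Ifi35 and −0.22 to 0.18 for Ifi44.

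No paired analysis was possible because the labels give the groups no shared replicate numbers. With 3 animals a group, an exact permutation test of 1 gene cannot go below P = 0.1, so calls rest on the spread shared across genes and groups. Depth limits Apol9a, Apol9b, Mx1, Oas3 and Zbp1, which had under 20 counts in every S library.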
